A study of Rattus norvegicus with 6 samples.

Results

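The 4 genes described here encode the enzymes that carry citrate-derived carbon into long-chain fatty acids. Acly, ATP citrate lyase, splits cytosolic citrate into acetyl-CoA and oxaloacetate. Acaca, acetyl-CoA carboxylase alpha, turns acetyl-CoA into malonyl-CoA, the committed step of the pathway. Fasn, fatty acid synthase, is a large multifunctional polypeptide that joins acetyl-CoA and malonyl-CoA into palmitate. Scd, stearoyl-CoA desaturase (called Scd1 in the study), puts a double bond into saturated acyl-CoA and yields oleate and palmitoleate. As background, the genes of this route share transcriptional regulators such as SREBP-1c, ChREBP and LXR and are highly expressed in liver, fat and sebaceous glands. The 4 genes were picked by their Ensembl identifiers, out of 23091 genes listed in the files. They are ENSRNOG00000045636 (Fasn), ENSRNOG00000034013 (Acaca), ENSRNOG00000013552 (Scd) and ENSRNOG00000016924 (Acly), and all 4 passed the filter on low counts.

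RNA-seq libraries came from the penile cavernous tissue of 3 normotensive Wistar-Kyoto rats, called Norm, and of 3 spontaneously hypertensive rats, called SHR. There was 1 library per labelled sample. By the methods the rats of both groups were 10 weeks old and had at least 1 week of acclimatization. Their age at tissue collection is not stated. By its abstract, the study collected tissue after assessing erectile function. By its methods, that assessment used pentobarbital anesthesia and electrical stimulation of the cavernous nerve. The SHR strain develops high blood pressure without treatment, so strain and blood pressure cannot be told apart in this comparison. Each library is called a rat below, although the sources used here do not say whether tissue of several animals was pooled. For RNA extraction the study's texts differ on the outer urethra membrane, which one names as the source and another as removed. The libraries held between 16608927 and 20017845 counts. Levels are given as FPKM, fragments scaled by gene length and library size as the authors deposited them, and differences as log2FC, the log2 fold change of SHR over Norm that edgeR's quasi-likelihood test estimated from the counts. In whole tissue, a change in the number of cells that express a gene and a change in RNA per cell cannot be told apart. No table used here pairs the identifiers with symbols, so markers of adipocytes, gland, smooth muscle or endothelium could not be located, and the part of tissue make-up in the results below was not tested.

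Before the genes were named, 2 checks were made. The length at which count, FPKM and library total fit each other was between 9144 and 9162 bases for Fasn over the 6 libraries, between 9209 and 9238 for Acaca, between 4688 and 4692 for Scd and between 4284 and 4344 for Acly. The 2 longest therefore belong to the identifiers of Fasn and Acaca, whose proteins are the largest of the 4. These lengths do not tell Fasn from Acaca, and by themselves they do not settle the names of Scd and Acly. The identifiers of Fasn, Acaca and Scd, which the study names as hub genes of its differentially expressed genes (DEGs), are listed among those DEGs. The identifier of Acly is not listed there, and the study does not name Acly, so that name rests on the identifier. Since Fasn, Acaca and Scd were singled out by the study on these same libraries, neither their direction nor their passing a test is independent evidence.

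Scd and Fasn rose most in the SHR group, Acaca rose moderately, and the values of Acly did not pass the test. Of the 4 genes, 3 had an adjusted p under 0.05 in edgeR's quasi-likelihood test with a higher level in the SHR group. Over all 13299 genes tested the share of such genes was 2.31%. The same 3 genes passed when a log2FC over 1 was asked for in addition, as did 1.65% of all genes tested. The study had picked these 3 from its own DEGs on the same libraries, so their number cannot be weighed against these shares. In all 4 genes every SHR rat lay above every Norm rat in CPM, the count scaled to the size of its library, a separation found in that direction for 13.4% of the genes tested. An exact two-sided permutation test of a single gene with 3 rats against 3 cannot give a p below 0.1, and it gave 0.1 for each of the 4. The median log2FC over all genes tested was -0.0049. The plot of FPKM per rat shows these values.

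**Figure D1:**
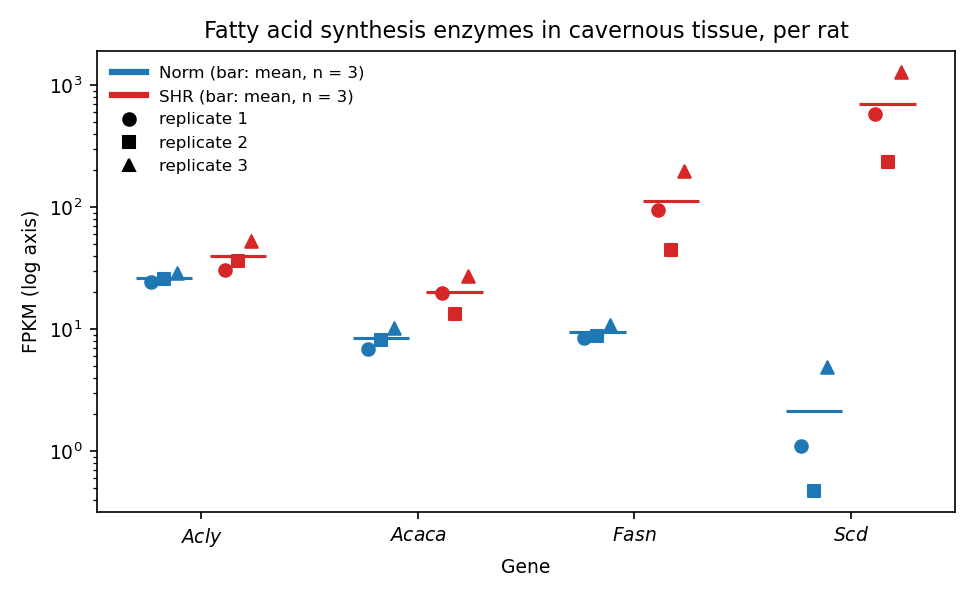
FPKM on a log axis (vertical) for the 4 genes (horizontal) in each rat. Blue marks are the 3 Norm rats, red marks the 3 SHR rats, the marker shape gives the replicate number and the short bars the group means. For Scd the Norm rats sit between 0.471 and 4.858 and the SHR rats between 232 and 1285, while for Acly the groups lie close together.

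Scd was the enzyme with the widest difference. Its FPKM was 1.10, 0.471 and 4.86 in Norm replicates 1, 2 and 3, and 581, 232 and 1285 in SHR replicates 1, 2 and 3. The lowest SHR rat thus stood 47.8-fold above the highest Norm rat on the FPKM scale. The counts behind these levels were 88, 39 and 456 in the Norm rats and 45271, 20113 and 102395 in the SHR rats. Desaturation of stearate and palmitate by this enzyme supplies the monounsaturated acids of triglycerides and wax esters. The mean rose from 9.80 ± 10.3 CPM (SD, n = 3) to 3213 ± 2491 CPM (SD, n = 3), and the log2FC was 8.34 (standard error 1.04, 95% interval 5.96 to 10.7, adjusted p = 0.00567 from edgeR). As a fold this is 324, with an interval from 62.3 to 1684. The 3 Norm rats differed from each other beyond counting error, since their exact 95% binomial intervals, which cover that error only, were 70.6 to 108, 27.7 to 53.3 and 415 to 500 counts. Without Norm replicate 3 the fitted fold of Scd was 811, and without SHR replicate 3 it was 186, with an adjusted p of 0.0158 and 0.0131 from edgeR.

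Among all genes tested, the log2FC of Scd was the third highest. Few genes were as abundant on average over the 6 libraries, a mean that for Scd is set by the SHR rats. By this mean 49 genes, Scd included, were at or above Scd, and 2 of these were called higher. Ranked by FPKM within each library, Scd stood at places 11138, 12417 and 8398 of 23091 in Norm replicates 1, 2 and 3 and at places 115, 265 and 52 in SHR replicates 1, 2 and 3. In SHR replicate 3 it alone took 0.603% of all counts (exact 95% binomial interval 0.599% to 0.606%), against 0.00228% in Norm replicate 3. The gain of Scd ranked 8th of all genes tested in mean FPKM and 3rd in mean CPM, where it was 3203.

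Fasn, the enzyme that assembles palmitate, was expressed at a narrow level in the Norm group and at a wide range of levels in the SHR group. Its FPKM was 8.475, 8.83 and 10.8 in Norm replicates 1, 2 and 3, and 94.7, 44.7 and 197 in SHR replicates 1, 2 and 3. Every SHR rat was at least 4.14-fold above the highest Norm rat, and SHR replicate 3 stood 4.42-fold above SHR replicate 2 on the same FPKM scale. The mean rose from 87.5 ± 4.88 CPM (SD, n = 3) to 1005 ± 705 CPM (SD, n = 3). The log2FC was 3.52 (standard error 0.48, 95% interval 2.43 to 4.61, adjusted p = 0.00771 from edgeR), an 11.5-fold difference. Its size leaned on SHR replicate 3, without which the fold was 7.06 with an adjusted p of 0.00905 from edgeR. The change of Fasn ranked 78th by log2FC among the genes tested, by the gain in mean FPKM 60th, and by the gain in mean CPM, which favours long transcripts and was 917, 8th.

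Acaca supplies the malonyl-CoA that Fasn uses. Its FPKM was 6.82, 8.085 and 10.2 in Norm replicates 1, 2 and 3, and 19.8, 13.3 and 27.0 in SHR replicates 1, 2 and 3. The groups did not overlap, but the lowest SHR rat was only 1.31-fold above the highest Norm rat in FPKM. The mean rose from 78.5 ± 10.3 CPM (SD, n = 3) to 181 ± 62.5 CPM (SD, n = 3), and edgeR gave a log2FC of 1.20 (95% interval 0.65 to 1.76, standard error 0.24, adjusted p = 0.0314). This call was the least firm of the 3. It held in 1 of the 6 fits that each left out a rat, the one without SHR replicate 2 (adjusted p = 0.00781 from edgeR). It was lost without Norm replicate 1, 2 or 3 and without SHR replicate 1 or 3, at an adjusted p between 0.0682 and 0.111 from edgeR, with log2FC values between 0.92 and 1.29.

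Acly stands at the head of the route, where citrate exported from mitochondria becomes acetyl-CoA. Its FPKM was 24.3, 25.7 and 28.7 in Norm replicates 1, 2 and 3, and 30.5, 35.8 and 52.4 in SHR replicates 1, 2 and 3. All SHR rats were above all Norm rats, by as little as 1.06-fold in FPKM between SHR replicate 1 and Norm replicate 3. The means were 116 ± 2.15 CPM (SD, n = 3) in the Norm group and 167 ± 51.1 CPM (SD, n = 3) in the SHR group. The log2FC was 0.52 (standard error 0.20, 95% interval 0.06 to 0.98), and its p of 0.0307 became 0.191 after Benjamini-Hochberg adjustment in edgeR. The adjusted p of Acly stayed between 0.0982 and 0.446 over the 14 alternatives tried. As a fold the interval ran from 1.04 to 1.98. Without SHR replicate 3 its log2FC was 0.25.

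**Figure D2:**
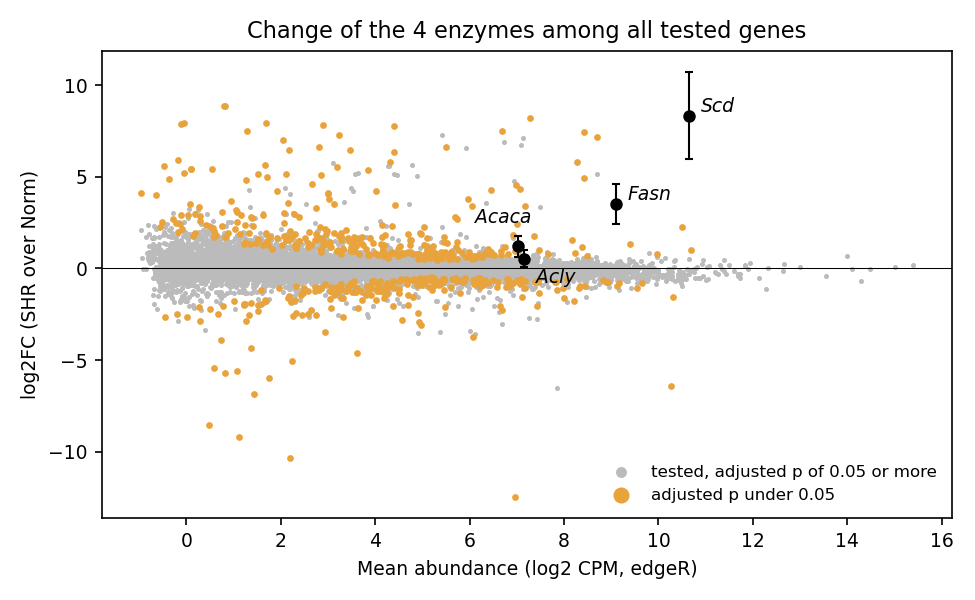
Each point is 1 of the 13299 genes tested, with the mean abundance in log2 CPM (horizontal) and the log2FC of SHR over Norm (vertical). Orange points have an adjusted p under 0.05 in edgeR, and black points with 95% intervals are the 4 enzymes. Scd (8.34) is the third highest point, Fasn (3.52) the 78th, Acaca (1.20) the 483rd and Acly (0.52) the 1483rd.

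The order of the 4 levels differed between the groups in the places of Scd, Acly and Acaca, while Fasn kept its place. In FPKM, which corrects for gene length, all 3 Norm rats had Acly highest, then Fasn, Acaca and Scd. All 3 SHR rats had Scd highest, then Fasn, Acly and Acaca. Some neighbours in these orders were not separated by their spread. In the Norm group Fasn (9.36 ± 1.24 FPKM, SD, n = 3) and Acaca (8.36 ± 1.69 FPKM, SD, n = 3) overlapped between rats. In the SHR group Fasn (112 ± 77.8 FPKM, SD, n = 3) and Acly (39.6 ± 11.4 FPKM, SD, n = 3) overlapped between rats, although Fasn was the higher of the pair in each rat. The other neighbours were apart in every rat, Scd (2.14 ± 2.37 FPKM in the Norm group and 700 ± 536 FPKM in the SHR group, SD, n = 3) from the rest in both groups and Acaca (20.1 ± 6.85 FPKM, SD, n = 3) from Acly in the SHR group.

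The summed FPKM of the 4 genes was 40.7, 43.1 and 54.6 in Norm replicates 1, 2 and 3 and 726, 326 and 1562 in SHR replicates 1, 2 and 3. Scd made up 2.71%, 1.09% and 8.91% of this sum in the Norm rats and 80.0%, 71.2% and 82.3% in the SHR rats. Acly went the other way as a share, from between 52.7% and 59.7% in the Norm rats to between 3.36% and 10.97% in the SHR rats, although its own level was higher there. Fasn kept a more even share, 19.8% to 20.8% in the Norm rats and 12.6% to 13.7% in the SHR rats. Together the 4 genes took 0.0251% to 0.0340% of all counts in the Norm libraries and 0.178% to 0.831% in the SHR libraries.

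**Figure D3:**
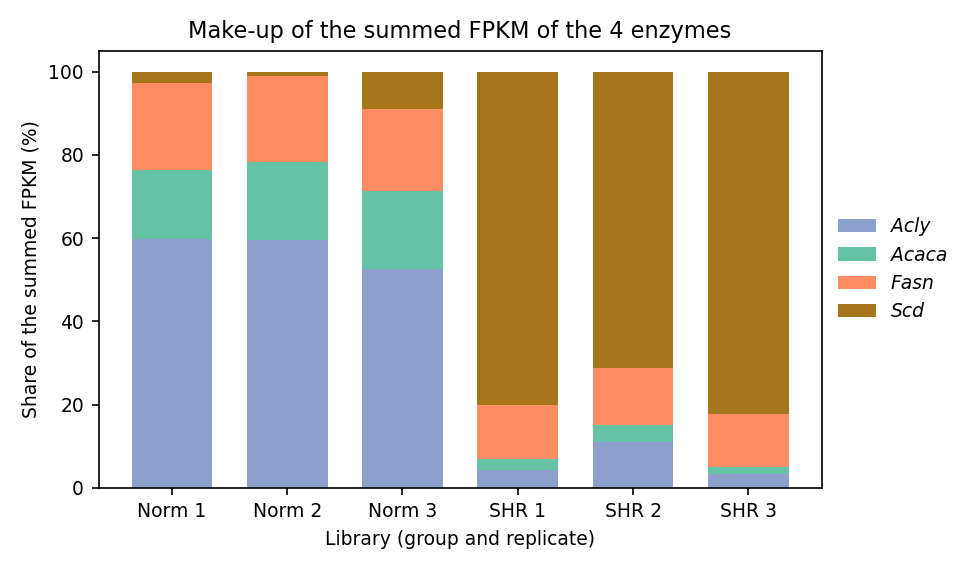
Share of each gene in the summed FPKM of the 4 enzymes (vertical, percent) in each library (horizontal). Acly makes up over 52% of the bar in the 3 Norm libraries and Scd over 71% in the 3 SHR libraries.

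Ratios between 2 genes of the same library do not depend on how that library was scaled, and they show how far the enzymes moved by unlike amounts. Each of the 6 pairs was compared between the groups on the log2 ratio of FPKM. In all 6 the values of the groups were fully separated. The 6 ratios are built from the same 4 genes, so they are not independent of each other. How often other pairs of genes are separated in this way was not computed. The exact two-sided permutation test gave p = 0.1 for every pair, the smallest it can give, and 0.1 after adjustment over the 6 pairs, so these sizes are a description. The ratio of Fasn to Acaca was 1.24, 1.09 and 1.06 in Norm replicates 1, 2 and 3 and 4.78, 3.35 and 7.30 in SHR replicates 1, 2 and 3. The synthase and the carboxylase were thus near parity in the Norm rats, and the synthase was well ahead in each SHR rat. The log2 ratio of Fasn to Acaca differed by 2.11 between the groups, against a pooled SD of 0.41.

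The ratio of Fasn to Acly was close to constant in the Norm rats, at 0.349, 0.344 and 0.375, and was 3.10, 1.25 and 3.77 in SHR replicates 1, 2 and 3. Acaca against Acly was the pair that differed least, with a log2 ratio 0.67 higher in the SHR group (pooled SD 0.31) and a narrow gap between Norm replicate 3 at 0.354 and SHR replicate 2 at 0.373. The log2 ratio of Scd to Acly differed most, by 8.12 (pooled SD 1.35).

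The pair of Scd and Fasn had a narrow ratio among the SHR rats and a wide one among the Norm rats. The ratio of Fasn to Scd was 0.163, 0.192 and 0.154 in SHR replicates 1, 2 and 3, a 1.25-fold range, while the FPKM of Scd alone ranged 5.53-fold and that of Fasn 4.42-fold over the same rats. In Norm replicates 1, 2 and 3 the ratio was 7.70, 18.8 and 2.22, an 8.45-fold range. There Fasn itself ranged 1.27-fold in FPKM and Scd 10.3-fold. Whether the range of this ratio differs between the groups was not tested.

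**Figure D4:**
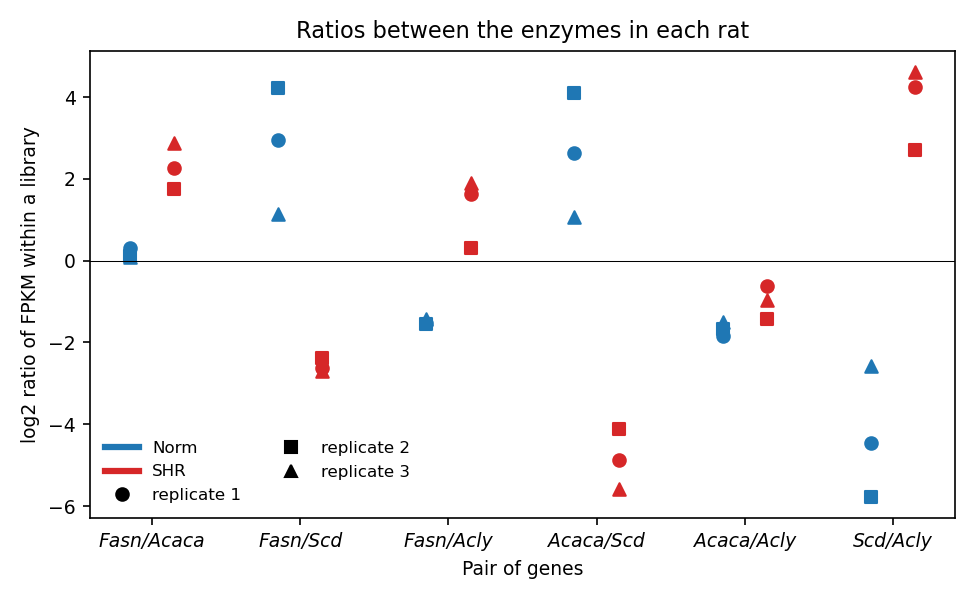
Log2 ratio of FPKM between 2 of the enzymes (vertical) for the 6 pairs (horizontal), with 1 mark per rat, blue for Norm and red for SHR. The 3 SHR marks of Fasn/Scd lie within a 1.25-fold range, the Norm marks of the same pair spread over 8.45-fold, and no pair overlaps between the groups.

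The spread among the SHR rats was itself large. The SD of log2 CPM among the SHR rats was 1.08 for Fasn, 0.51 for Acaca, 1.24 for Scd and 0.43 for Acly, beside a median of 0.18 over all genes tested. These values exceeded those of 98.8%, 91.5%, 99.2% and 87.2% of the genes tested. Among the 307 genes called higher in the SHR group the median SD was 0.28, and the 4 genes exceeded 93.8%, 72.3%, 96.7% and 68.4% of them. Among the Norm rats the SD of log2 CPM was 0.079 for Fasn, 0.19 for Acaca, 1.58 for Scd and 0.027 for Acly, with a median of 0.22 over all genes. Fasn and Acly were therefore among the steadier genes of the Norm group, at the 11.1 and 1.45 percentile, and Scd was among the most variable in both groups, at the 99.2 percentile in the Norm group.

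SHR replicate 3 had the highest level of all 4 genes. Fasn, Acaca and Scd followed the order SHR replicate 3, then 1, then 2, and for Acly the order of CPM was 3, then 2, then 1. The order of Fasn, Acaca and Scd was also the most frequent one among the 307 genes with an adjusted p under 0.05 that were higher in the SHR group, where 137 genes (44.6%) had it. Among all genes tested it was found in 22.1%. Acly's order also puts SHR replicate 3 on top, and its shares were 13.1% of tested genes and 6.5% of those 307. A top place of SHR replicate 3 is therefore not particular to these 4 genes. In the Norm group, Norm replicate 3 was the highest for Fasn, Acaca and Scd. Fasn and Acaca had the order Norm replicate 3, then 2, then 1, found in 23.9% of all genes tested. Scd had the order Norm replicate 3, then 1, then 2, found in 10.35% of them. The CPM of Acly in Norm replicates 2 and 3 was 117.7 in both.

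Genes with a pattern like that of Fasn and Scd were sought by the Pearson correlation of log2 CPM over the 6 libraries, which is a description, since the libraries fall into 2 groups and a gene that differs between these tends to get a high value. The gene most like Scd was ENSRNOG00000009153 (r = 0.998), at 0.570, 0.420 and 2.26 CPM in Norm replicates 1, 2 and 3 and 197, 78.7 and 341 CPM in SHR replicates 1, 2 and 3. It shared with Scd the higher level in Norm replicate 3, which its choice by correlation favours. Its levels in Norm replicates 1 and 2 rest on few counts. In edgeR its log2FC was 7.49 (adjusted p = 0.00319, standard error 0.75). The gene most like Fasn was ENSRNOG00000012989 (r = 0.998), which had between 0.283 and 0.317 CPM in the Norm rats and 1.22, 0.850 and 1.97 CPM in SHR replicates 1, 2 and 3. These are few counts, and its log2FC of 2.14 (standard error 0.47) had an adjusted p of 0.0434 from edgeR. Of the other enzymes, Acaca was the 50th most like Fasn (r = 0.983), Scd the 145th (r = 0.964) and Acly the 995th (r = 0.824) of 13298 genes. With each library taken as its deviation from the mean of its group, the correlation with Fasn was 0.957 for Acaca, 0.663 for Scd and 0.673 for Acly. By this measure Acaca was the 100th, Scd the 1684th and Acly the 1625th most like Fasn of the 13298 genes.

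RefSeq's promoter table (GRCr8) held an entry for 2 of the 4 genes, Scd and Acly, and these 2 promoters are shown for that reason. Whether their letters bear on the unequal change of the 2 transcripts was not tested. The 250 bases before the annotated start are printed 5′ to 3′ on the gene's strand, for Scd from chr1:253231732-253231981 and for Acly from chr10:85963632-85963881, both on the minus strand, and capitals mark the motifs that were found.
Scd: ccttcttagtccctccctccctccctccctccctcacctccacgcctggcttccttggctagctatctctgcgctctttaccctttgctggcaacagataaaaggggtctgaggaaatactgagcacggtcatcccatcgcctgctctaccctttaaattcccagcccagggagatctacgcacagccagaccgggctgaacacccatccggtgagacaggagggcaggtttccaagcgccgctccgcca
Acly: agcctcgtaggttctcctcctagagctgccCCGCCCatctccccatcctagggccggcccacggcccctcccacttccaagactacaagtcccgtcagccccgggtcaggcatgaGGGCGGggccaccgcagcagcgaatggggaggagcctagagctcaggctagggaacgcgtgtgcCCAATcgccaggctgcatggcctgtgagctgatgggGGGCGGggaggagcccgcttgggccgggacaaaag

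Of the 5 motifs searched on both strands, the Acly stretch held the NF-Y box CCAAT once, starting 71 bases before the annotated start, and the GC box GGGCGG at 3 places, starting 220, 135 and 35 bases before it. The match at 220 bases lies on the opposite strand and is therefore printed as CCGCCC. Over all 33469 promoter entries of the table, 34.0% held CCAAT and 30.5% held GGGCGG in this window. The Scd stretch held neither of them. Neither stretch held the E-box CACGTG (5.59% of all entries) or the sterol response element cores TCACNCCAC (0.974%) and TCACNNCAC (3.19%), of which the second includes the first. The GC content was 58.8% for Scd and 68.0% for Acly. A match describes these letters only, and no binding was measured. The search covered only the exact patterns given here, within this window. A missing match therefore does not show that a promoter lacks a sterol response element of another form or outside the window.

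The direction of all 4 genes was the same under every alternative tried. Since every SHR rat lay above every Norm rat in each gene, leaving out a library could hardly reverse it. The plot of the settings gives each value.

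**Figure D5:**
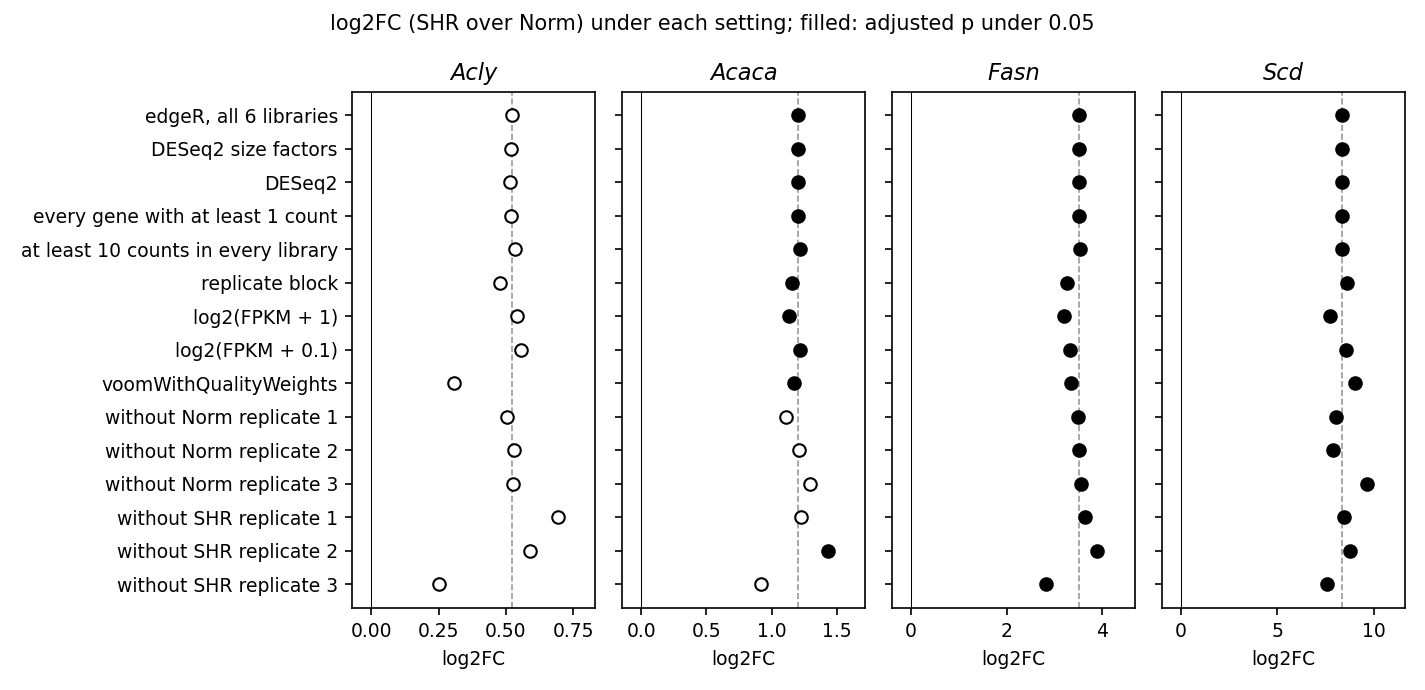
Log2FC of SHR over Norm (horizontal, 1 panel per gene with its own axis) under edgeR with all 6 libraries and the 14 alternatives (vertical). Filled marks have an adjusted p under 0.05. All marks of Scd and Fasn are filled, none of Acly is, and Acaca has 5 open marks, all in fits that leave out 1 rat.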

How the data were processed

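For each of 6 libraries the authors deposited counts per Ensembl gene, which are whole numbers and not normalized, and FPKM values, which scale fragments by gene length and library size. The submitters' processing notes list fastp 0.18.0, Bowtie2 2.2.8, HISAT2 2.1.0, StringTie 1.3 and RSEM, without roles. Genome build and annotation are not given in the sources used here. A count of 0 stood beside an FPKM above 0 in 31 cases, so counts may be rounded estimates. How reads shared between paralogues (Scd with Scd2, Acaca with Acacb) were assigned is not known. The labels number 3 samples per group and the methods do not say whether tissue was pooled. The p-values therefore set the group difference against the spread between these samples, which need not be the spread between animals.

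The test on the counts of all genes was edgeR 4.0.16 run under R 4.3.3 (TMM, filterByExpr, glmQLFit, glmQLFTest), with Benjamini-Hochberg adjustment over the 13299 genes kept. Standard errors were derived from the F statistic. CPM used TMM-scaled totals, and log2 CPM a prior count of 2. A gene with 3 counts stood at 0.141 to 0.190 CPM. Alternatives were DESeq2 1.42.0, its size factors, other filters, limma 3.58.1 on log2(FPKM + 1) and log2(FPKM + 0.1), voomWithQualityWeights, a replicate block and leaving out each library. Pairs of libraries of a group differed beyond counting noise (chi-square per degree of freedom 21.0 to 74.5). Tables were joined with Python 3.11.15, pandas 2.3.3 and scipy 1.17.1.

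The genes and lists were chosen with earlier results of these data known. The genes to be named were the 4 enzymes, genes of fixed lists of lipid metabolism and cell types, and the 3 genes most like each enzyme. RefSeq's gene table gave 0 Ensembl identifiers, so the lists could not be run, and 2 identifiers are printed, the gene most like each of the 2 enzymes with the largest log2FC. The authors' comparison columns were not used.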

Additional observations from a re-analysis of the deposited data

How the results depend on the processing

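Fasn and Scd kept an adjusted p under 0.05 under all 14 alternatives, and Acly passed under none. Their direction was kept as well, which leaving out a library could hardly change, as the groups did not overlap in CPM. With no library left out, log2FC ran from 3.21 to 3.53 for Fasn, 7.73 to 9.02 for Scd, 1.13 to 1.21 for Acaca and 0.31 to 0.56 for Acly. With 1 library left out it ran from 2.82 to 3.90 for Fasn, 7.54 to 9.66 for Scd, 0.92 to 1.43 for Acaca and 0.25 to 0.69 for Acly. Acaca lost its call in 5 of these 6 fits, at log2FC from 0.92 to 1.29, and these fits have fewer samples by construction. As a fold, Scd was 519 with voomWithQualityWeights and 213 with log2(FPKM + 1), against 324. The ratios between genes moved by less than the pooled SD under CPM and with any library left out.

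Over all genes, 540 had an adjusted p under 0.05 and 345 of these a log2FC over 1 in size. DESeq2 gave 1256 and 609, and voomWithQualityWeights 1586 and 635. Log2(FPKM + 1) gave 543 and 213. The cause of these differences was not tested. With 1 library left out the numbers ran from 161 to 632 and from 156 to 486, and were 191 and 181 without Norm replicate 2, 214 and 179 without Norm replicate 3, 161 and 156 without SHR replicate 1, and 225 and 201 without SHR replicate 3.

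With the replicate block, 294 genes had an adjusted p under 0.05. It changed no call of the 4 genes, whose log2FC was 3.27 for Fasn, 1.15 for Acaca, 8.58 for Scd and 0.48 for Acly. The standard error of Scd was 0.29 with the block and 1.04 without it. The sources used here do not say whether same-numbered libraries share more than a number. Their deviations from the group means correlated over genes at -0.04, -0.15 and -0.12. Libraries with different numbers were not compared in this way, so these values do not settle it.

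The planned counts over lists of pathway and marker genes were not run, because no table used here pairs identifiers with names. Depth limits Scd in the Norm group most, at 39 to 456 counts.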
